A study of Acomys cahirinus and Mus musculus with 10 samples.

Results

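The epidermal differentiation and barrier genes are 39 mouse genes, chosen by symbol, whose products build the upper layers of the skin. They were followed in ear tissue of *A. cahirinus*, the spiny mouse whose samples are labelled regenerating, and of *M. musculus*, the house mouse whose samples are labelled fibrotic, among 24092 *M. musculus* gene numbers and 676820 *A. cahirinus* assembly components in the tables. Tissue was taken before a 4-mm through-and-through ear punch (D0, uninjured) and 5, 10, 15 and 20 days after it (D5, D10, D15 and D20), from 3 mature females of each species at each time by the study's account. The *M. musculus* were of the outbred CD1 strain, the labels name no engineered allele and no drug, and the tissue was a ring of ear next to the wound edge, so each sample mixes epidermis, dermis, cartilage and muscle.

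Keratinocytes leave the basal layer, switch to new keratins and then pack keratin bundles with filaggrin family proteins. Transglutaminases cross-link loricrin, involucrin and the small proline-rich proteins into a cornified envelope, lipoxygenases, a lipid transporter and fatty acid enzymes supply the lipids between the dead cells, and proteases release those cells at the surface. Several of these genes are also known for being induced in the thickened epidermis beside a wound.

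Each value below is a group mean in normalized counts, recovered from the 2 ratios that the authors deposited for each gene. The mean expresses the average over the animals of a group, and the tables hold no value per animal, so no standard deviation can be given and no test was run here. A gene is said to have risen or fallen where the authors' EBSeq posterior probability of differential expression was at least 0.95, and changes are log2 ratios of the later day to D0. The 4 comparisons of a species share its D0 animals. In whole tissue, fewer cells of a type and less RNA per cell cannot be told apart.

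All 39 genes had a gene number in *M. musculus*, whose gene names were inferred from the order of the reference, least firmly for Krt2 and Krt80. In *A. cahirinus*, 37 had an assembly component (a group of related contigs) under 99% identity by top BLASTN bit score, at a median identity of 89.2% and over 130 to 3059 aligned bases. Lce1a1 had no alignment. Krt1 had only components with a 100% identical contig and was set apart. Krt2 and Krt77 had the same component, which was counted once, leaving 36.

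Components whose top alignment was 99% or more were kept out because 15 of the genes also had 1 or more that matched the *M. musculus* transcript almost base for base. The 31 such components other than the one of Krt1 had D0 means between 0.329 and 26.4 normalized counts, with a median of 5.08. Their means summed to 234 before injury and to 90.9, 215, 88.2 and 75.8 at the later days in order. Their levels were thus low at all times, and the origin of these contigs was not tested.

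The sequences below show the small proline-rich protein gene Sprr1b, which rose steeply in both species, and this difference between contigs for repetin (Rptn), a filaggrin family protein, and filaggrin (Flg). They are stretches of 90 bases from the deposited references, 5′ to 3′, with capitals where a contig differs from the *M. musculus* transcript in an ungapped comparison. The first Rptn contig is the one used, the second is one set apart. For Flg, the first contig has the top bit score and lies just under the 99% limit, and the second belongs to the next component.
Sprr1b, M. musculus: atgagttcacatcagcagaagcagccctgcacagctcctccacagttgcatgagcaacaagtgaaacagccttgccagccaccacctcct
Sprr1b, A. cahirinus, 87.22%: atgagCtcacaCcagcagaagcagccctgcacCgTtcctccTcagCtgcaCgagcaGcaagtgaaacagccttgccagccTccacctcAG
Rptn, M. musculus: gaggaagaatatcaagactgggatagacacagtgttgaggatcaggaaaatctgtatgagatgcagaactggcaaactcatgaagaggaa
Rptn, A. cahirinus, 83.8%: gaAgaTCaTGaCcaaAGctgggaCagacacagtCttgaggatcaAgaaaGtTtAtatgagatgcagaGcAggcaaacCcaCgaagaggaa
Rptn, A. cahirinus, 100%: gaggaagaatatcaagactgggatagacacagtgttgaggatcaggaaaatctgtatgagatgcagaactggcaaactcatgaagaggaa
Flg, M. musculus: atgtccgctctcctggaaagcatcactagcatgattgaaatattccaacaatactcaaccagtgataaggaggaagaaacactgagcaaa
Flg, A. cahirinus, 98.79%: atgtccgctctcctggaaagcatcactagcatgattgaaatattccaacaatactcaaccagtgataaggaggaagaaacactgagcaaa
Flg, A. cahirinus, 86.79%: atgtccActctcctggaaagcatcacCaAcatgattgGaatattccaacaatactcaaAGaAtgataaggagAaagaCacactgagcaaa

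In these 90 bases the Sprr1b contig differed from *M. musculus* at 11 positions. The used Rptn contig differed from *M. musculus* at 18 positions and the one set apart at 0. The top Flg contig differed at 0 and the contig of the next component at 9. A strict limit of 99% therefore keeps a Flg component that is as close to *M. musculus* here as the contigs set apart, and for Flg, Flg2 and Hrnr, whose used components were 97.93% to 98.81% identical, values of the next component are given too. No other used component had a top-scoring alignment to its own gene above 91.96%. The one shared by Krt2 and Krt77 scored highest against Krt71, at 93.62%. Single contigs within these other components reached 99.54% for Krt10, 98.46% for Grhl3 and 96.73% in the component of Krt78. Further ones reached 96.67% for Dmkn, 96.27% for Abca12 and 95.18% for Elovl4, and the reads of all these contigs are in the values.

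**Figure D1:**
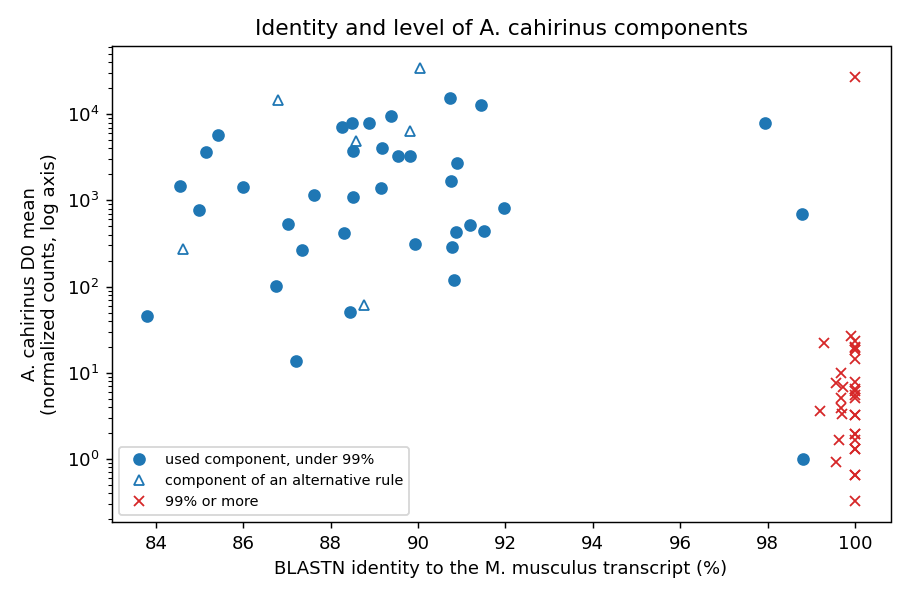
BLASTN identity to the M. musculus transcript (x axis, percent) against the D0 mean in A. cahirinus (y axis, normalized counts, log axis) for each component; filled circles are used components, triangles those of an alternative rule and crosses those of 99% or more. The crosses lie below 30 normalized counts apart from the component of Krt1, while the used components lie between 83.8% and 98.81% identity and only 1 of them, that of Flg2, is under 1 normalized count.

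Over the whole set, more genes rose than fell at D5 in both species, and more fell than rose at D20. Among changes of at least 1 on the log2 scale, however, 5 rose and 3 fell at D20 in *A. cahirinus*. In *M. musculus*, 24 of 39 rose at D5, against a background of 16.5% of all gene numbers, and 6 fell, against 13.6%. At D10, 12 rose (background 15.1%) and 10 fell (14.1%), at D15 7 rose (13.2%) and 9 fell (12.5%), and at D20 8 rose (12.3%) and 20 fell (11.9%). The median log2 change over the genes was 0.81, 0.37, 0.24 and -0.43 at the 4 days, beside -0.10, -0.07, -0.07 and -0.04 over all gene numbers.

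In *A. cahirinus*, 21 of 36 components rose at D5, against a background of 30.4% of the components chosen for any *M. musculus* gene number by the same rule, and 3 fell, against 11.1%. At D10, 14 rose (background 21.0%) and 4 fell (11.4%). At D15, 7 rose (18.2%) and 18 fell (14.3%), and at D20 7 rose (12.7%) and 16 fell (14.7%). The medians were 0.42, 0.32, -0.39 and -0.39, beside 0.21, 0.10, 0.04 and -0.03 over all those components. The median was below 0 from D15 on in *A. cahirinus* and at D20 in *M. musculus*, and the difference in timing was not tested. In *M. musculus* at D15, called falls outnumbered called rises while the median was 0.24. Changes there of 1.09 for Asprv1, 1.04 for Calml3 and -1.28 for Krt77 were not called, while that of -0.52 for Aloxe3 was. Some of the 36 *A. cahirinus* components also hold contigs of other genes. Among only those whose contigs all match 1 gene, 17 rose and 2 fell at D5, and 11 rose and 3 fell at D10. At D15, 5 of them rose and 15 fell, and at D20 5 rose and 13 fell. The share over all such components was not computed. The lowest means at D15 in *A. cahirinus* fell on steps of 2 sizes, 0.374 and 0.609, where those at D0, for example, fell on 3, 0.257, 0.292 and 0.329, so the number of libraries behind D15 is in doubt.

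The highest of the 4 changes lay at D5 for 36 of 39 genes in *M. musculus*. In *A. cahirinus* it lay at D5 for 24 of 36 and at D10 for 11. At D5, 17 genes rose in both species and 2 fell in both, and Sbsn rose in *A. cahirinus* and fell in *M. musculus*. At D15, Sprr1a fell in *A. cahirinus* and rose in *M. musculus*. At D20, 4 rose in both and 14 fell in both. The share of all genes called in both species was not computed, so these counts are a description. Some of the *A. cahirinus* components behind them also hold contigs of other genes. At D5 these were the components of Krt78, Sprr2d, Lce1b and Cers3 among the rises in both, and of Krt77 among the falls in both.

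**Figure D2:**
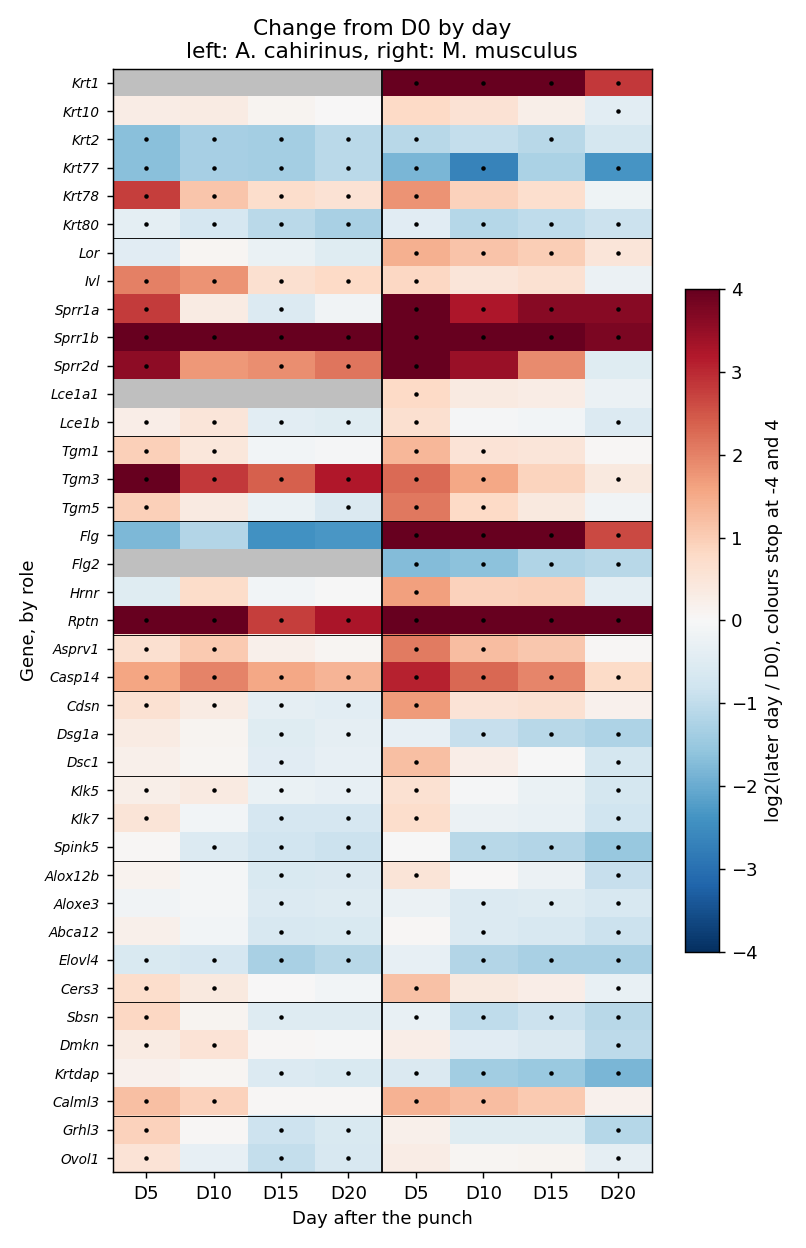
Log2 change from D0 for each gene (rows, by role, separated by thin lines) at D5, D10, D15 and D20 in A. cahirinus (left) and M. musculus (right); a dot marks a posterior probability of at least 0.95, grey marks no component, or for Flg2 a component under 1 normalized count, and Krt2 and Krt77 show 1 shared component in A. cahirinus. The colour scale is capped, and red reaches its end at D5 and D10 for Sprr1b and Rptn in both species. It also does so for other genes, such as Krt1 and Flg in M. musculus. Blue spreads over the desquamation, lipid and secreted genes at D15 and D20.

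The suprabasal keratins split. Among the 6 in *M. musculus*, the largest change was that of Krt1, the type II keratin that pairs with Krt10 above the basal layer. Krt1 went from a mean of 1774 before injury to 84089 at D5 and then to 56222, 41579 and 12516, a rise of 5.57, 4.99, 4.55 and 2.82 on the log2 scale. Krt2, a type II keratin of the uppermost living layers, went the other way, from 44696 to 20769, 22909, 20573 and 27320, and the fall was called at D5 and D15. Per kilobase of transcript, Krt1 was at 725 and Krt2 at 17105 at D0, and Krt1 at 34364 and Krt2 at 7948 at D5, so the order of these keratins was reversed. This rests on the inferred names of neighbouring gene numbers, least firm for Krt2. At D20 Krt2 was again the higher, at 10455 per kilobase against 5115.

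Krt10, the type I partner, had means of 36865, 64096, 54774, 43422 and 27276 in *M. musculus* from D0 to D20, and only the fall at D20, of 0.43, was called. In *A. cahirinus* its means were 15318, 18852, 19110, 16390 and 15382, with no call at any day. The level of Krt10 thus varied far less than that of its partner Krt1 in *M. musculus*.

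The *A. cahirinus* component set apart for Krt1 held 65 aligned contigs, of which 41 matched Krt1 best, 3 of them at 99% or more, 21 matched Krt6a and 3 matched Krt2. Its means were 26856 at D0, 92026, 59538, 40270 and 40133, a rise called at all 4 days, of 1.78 on the log2 scale at D5 and 0.58 at D20. Krt1 and Krt6a, a wound-induced keratin, cannot be told apart in it. The component shared by Krt2 and Krt77, which also held contigs of the root sheath keratin Krt71, fell from 7840 to 2463, 3143, 3078 and 3743. A second component, whose contigs all matched Krt2 best at up to 89.81%, had means of 6336, 1877, 2362, 1604 and 2574 and fell at all 4 days. Of the pair, only the second can be given to Krt2.

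Krt77, a type II keratin known from sweat ducts and skin, fell in *M. musculus* from 1793 to 508 at D5, 281 at D10 and 352 at D20, and was at 738 at D15, which was not called. The small *A. cahirinus* component whose best hit was Krt77 had means of 61.5, 26.9, 81.6, 161 and 36.0. Its direction differed between days, from a fall of 1.19 at D5 to a rise of 1.39 at D15. The falls of the larger shared component are therefore not those of Krt77 alone.

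Krt78 rose in *M. musculus* from 798 to 2804 at D5 and was at 703 at D20. The *A. cahirinus* component went from 7075 to 48118, 15392, 11635 and 10482, but 12 of its 22 aligned contigs matched Krt78, 7 the wound-induced Krt6a and 3 the basal keratin Krt5, for which it was also the chosen component. Its rise cannot be given to Krt78. Krt80, a type II keratin of differentiating epithelia, fell at every day in both species, from 3010 to a lowest mean of 1361 at D10 in *M. musculus* and from 2699 to 1103 at D20 in *A. cahirinus*.

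**Figure D3:**
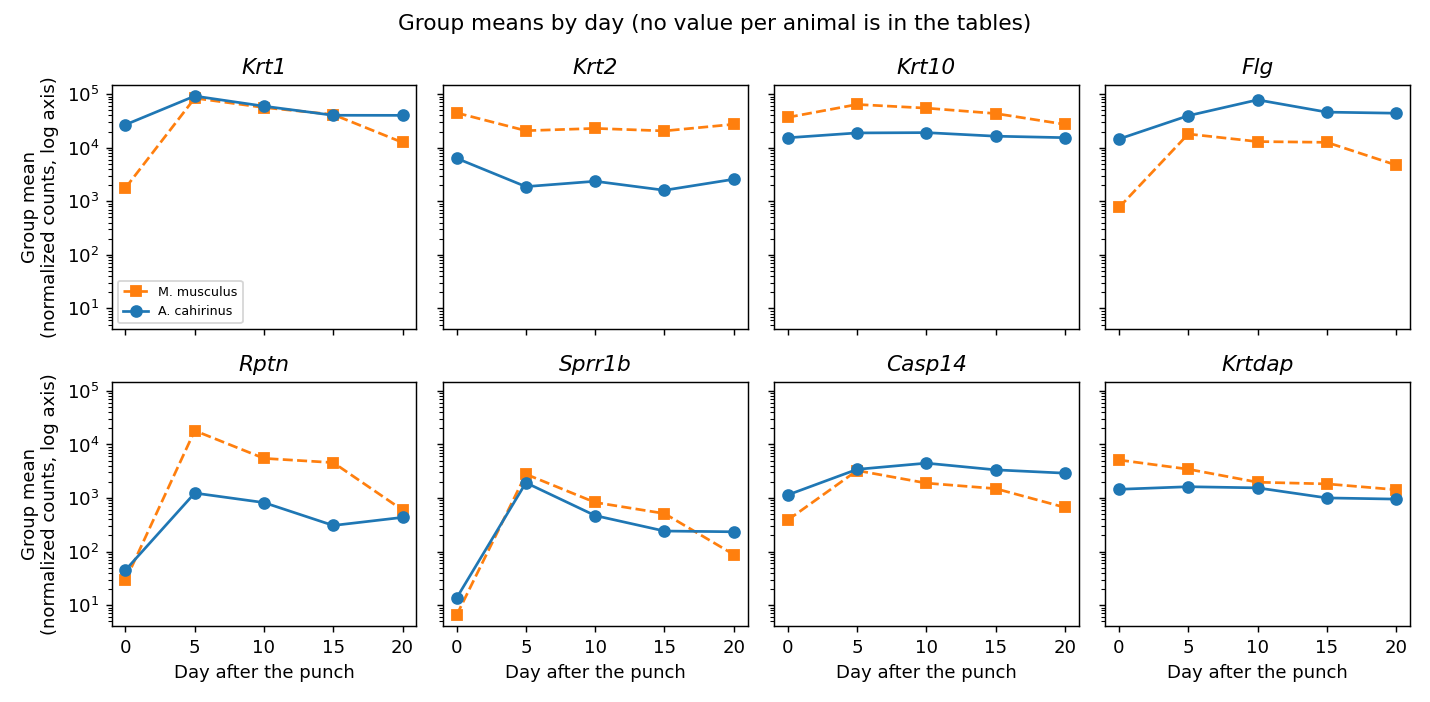
Group means by day (x axis, days after the punch; y axis, normalized counts, log axis) for 8 genes in A. cahirinus (circles) and M. musculus (squares); A. cahirinus Krt1 is the component set apart, Krt2 the component whose contigs all matched Krt2, and Flg the component of 86.79% identity. Flg rises and Krt2 falls from D0 to D5 in both species, Krt1 rises in M. musculus, as does the A. cahirinus component that mixes Krt1 with Krt6a, and Rptn and Sprr1b start below 50 normalized counts in both; levels are not comparable between species, since the references differ.

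Of the cornified envelope precursors, 7 of 7 rose in *M. musculus* at D5 (background 16.5%). In *A. cahirinus* 5 of 6 rose (30.4%) and none fell (11.1%). Sprr1b, a small proline-rich protein that transglutaminases cross-link, went from 6.52 at D0 to 2787, 828, 514 and 88.3 in *M. musculus* and from 13.6 to 1931, 470, 242 and 234 in *A. cahirinus*. Its rise was called at all 4 days in both, by 8.74 on the log2 scale at D5 in the first and 7.15 in the second.

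Sprr1a, its close relative, showed a different course in each species. In *M. musculus* it went from 44.0 to 1579, 416, 553 and 552 and rose at all 4 days. In *A. cahirinus* it went from 418 to 2934 at D5, which was called, then to 525, 286 and 383, with a fall of 0.55 called at D15. The mean change over the days was 3.93 in *M. musculus* and 0.62 in *A. cahirinus*. Sprr2d went from 34.7 to 1095, 380, 129 and 25.0 in *M. musculus*, with a call at D5 only, and its *A. cahirinus* component, which also held Sprr2h and Sprr2e contigs, went from 103 to 1216, 344, 371 and 449.

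Loricrin (Lor), the major envelope protein, rose at all 4 days in *M. musculus*, from 1846 to 4964, 4101, 3647 and 2557. In *A. cahirinus* the component had means of 779, 563, 815, 653 and 558 and was called at no day. Involucrin (Ivl), an early envelope scaffold, rose at D5 in both species. The *A. cahirinus* component went from 285 to 1139, 984, 448 and 496, a rise called at all 4 days. *M. musculus* means went from 293 to 522, 409, 449 and 250, with a call at D5 only. At D15 the log2 changes of Ivl were close, 0.65 for *A. cahirinus*, called, beside 0.61 for *M. musculus*, not called. The *A. cahirinus* component of Ivl was chosen on 130 aligned bases, the shortest alignment used. That of Lor was chosen on 340 bases at 85% identity. The difference between species was not tested for either.

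Of the late cornified envelope genes, Lce1a1, measured in *M. musculus* alone, went from 791 to 1387 at D5, which was called, and to 671 at D20. Lce1b rose from 559 to 862 at D5 and fell to 380 at D20 there. Its *A. cahirinus* component, best matched by Lce1d and with contigs of other Lce genes too, went from 1674 to 2019 and 2322 and then to 1256 and 1196, and was called at each day.

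Transglutaminases rose together at D5 in both species, 3 of 3 in each (background 16.5% in *M. musculus* and 30.4% in *A. cahirinus*). Tgm3, which cross-links envelope and hair proteins, went from 397 to 1902, 1152, 737 and 525 in *M. musculus*, with calls at D5, D10 and D20. In *A. cahirinus* it went from 50.2 to 871, 354, 266 and 459 and was called at all 4 days, the largest mean change of the transglutaminases, 3.13 beside 1.27 in *M. musculus*. Tgm1, the membrane-bound enzyme of the granular layer, rose from 490 to 1221 at D5 and 713 at D10 in *M. musculus* and from 806 to 1568 and 1092 in *A. cahirinus*. Tgm5 rose at D5 from 98.6 to 424 and from 119 to 229, and fell to 80.3 at D20 in *A. cahirinus*.

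Within the filaggrin family, 3 of 4 genes rose (background 16.5%) and 1 fell (13.6%) at D5 in *M. musculus*. Rptn had the largest change of the 39 genes there. It went from 29.1 at D0 to 18123 at D5, 5501, 4585 and 598, a rise of 9.28 on the log2 scale at D5 and 4.36 at D20. In *A. cahirinus* it went from 45.1 to 1238, 823, 308 and 435, a rise of 4.78 at D5, called at all 4 days as in *M. musculus*. The change was the larger in *M. musculus* at each day.

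Flg, which bundles keratin and is later broken down to natural moisturizing factors, rose at all 4 days in *M. musculus*, from 766 to 18010, 13008, 12585 and 4746, on a reference transcript of only 1076 bases. The *A. cahirinus* component of 98.79% had means of 688, 197, 302, 128 and 137 and was called at no day, and 2 of its 3 aligned contigs matched the glutathione transferase Gstm1. The component of 86.79% identity went from 14524 to 39568, 78140, 46125 and 44013 and rose at all 4 days. The choice of component thus turns the sign of the *A. cahirinus* change, from a mean of -1.93 to 1.79.

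Flg2 fell in *M. musculus* at all 4 days, from 63434 to 19195, 20524, 27411 and 29579. Its *A. cahirinus* component of 98.81% was at 0.987 normalized counts at D0 and lower at each later day, and no direction is read from it. The component of 90.05% fell at all 4 days, from 34704 to 12434, 29300, 22077 and 15486. Flg and Flg2, neighbours on chromosome 3, therefore moved in opposite directions in *M. musculus*, and in *A. cahirinus* with those components of lower identity.

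Hornerin (Hrnr), a large repeat protein of the same family, rose at D5 in *M. musculus*, from 22746 to 71470, and then had means of 42915, 43754 and 17379. Its 97.93% component in *A. cahirinus*, with 1 of its 3 contigs at 100%, had means of 7836, 5580, 13016, 7332 and 7701 without a call. The component of 88.59% had means of 4910, 2828, 6079, 3473 and 3545 and fell at D5. No rise of Hrnr was called in *A. cahirinus* with either.

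The enzymes that process filaggrin rose in both species at D5 and D10. Casp14, the caspase of cornifying cells, went from 389 to 3262, 1898, 1498 and 669 in *M. musculus* and from 1144 to 3433, 4478, 3358 and 2914 in *A. cahirinus*, and the rise was called at all 4 days in each. Asprv1, an aspartic protease that cuts profilaggrin, went from 2822 to 12037, 6617, 6010 and 2889 and from 3706 to 5728, 7583, 4287 and 3913. For both genes D10 had the highest level in *A. cahirinus* and D5 in *M. musculus*.

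Of the 3 corneodesmosome genes, 2 rose at D5 in *M. musculus* (background 16.5%) and 1 in *A. cahirinus* (30.4%), which is near that background. At D20, 2 fell in each (11.9% and 14.7%). Cdsn, corneodesmosin, rose at D5 in *M. musculus*, from 1823 to 5934, and was at 2056 at D20, which was not called. In *A. cahirinus* it rose from 1441 to 2210 and 1804 and fell to 1122 and 1087. Dsc1, a desmosomal cadherin of upper layers, rose from 3682 to 8416 at D5 and fell to 2265 at D20 in *M. musculus*, and in *A. cahirinus* only the fall at D15, from 3272 to 2387, was called. Dsg1a, its partner cadherin, fell from D10 on in *M. musculus*, from 19868 to 10427, 9291 and 8499, and at D15 and D20 in *A. cahirinus*, from 9528 to 6864 and 7363, in a component that also held Dsg1b contigs.

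The desquamation genes all fell by D20 in both species (background 11.9% in *M. musculus* and 14.7% in *A. cahirinus*). The kallikrein proteases Klk5 and Klk7 first rose at D5, in *M. musculus* from 459 to 697 and from 1631 to 2664, and in *A. cahirinus* from 1094 to 1291 and from 1387 to 1969. At D20 Klk5 was at 282 and Klk7 at 931 in *M. musculus*, and at 876 and 867 in *A. cahirinus*. Spink5, the inhibitor of these proteases, did not rise at any day: it fell from 5400 to 1888 at D20 in *M. musculus* and from 3287 to 1807 in *A. cahirinus*, with calls from D10 on in both.

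Barrier lipid genes were mostly lower late. At D20, 5 of 5 fell in *M. musculus* (background 11.9%) and 4 of 5 in *A. cahirinus* (14.7%). Elovl4, which makes the very long fatty acids of skin ceramides, fell from 12659 to 8225, 7882, 5197 and 5809 in *A. cahirinus*, at all 4 days, and from 6772 to 3000, 2736 and 2767 at D10 to D20 in *M. musculus*. Abca12, the lipid transporter of lamellar granules, fell at D20 from 5400 to 2981 and from 4065 to 2645. The lipoxygenase genes Alox12b and Aloxe3 fell at D20 from 511 to 270 and from 445 to 287 in *M. musculus*, and from 313 to 211 and from 442 to 306 in *A. cahirinus*.

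At D5, Alox12b rose in *M. musculus*, from 511 to 734, and Cers3, the ceramide synthase of the epidermis, rose in both species. Cers3 went from 403 to 910 in *M. musculus*, and its component, which also held contigs of the phosphatase gene Ppm1f, from 528 to 852 in *A. cahirinus*. At D20 it fell to 330 in *M. musculus*. A second component matched best by Cers3 had means of 270, 378, 338, 269 and 251 and rose at D10 only.

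The secreted proteins Sbsn, Dmkn and Krtdap, whose genes lie side by side on chromosome 7, fell at D20 in *M. musculus*. Krtdap fell from 5130 to 3455, 1974, 1836 and 1432, and Sbsn from 11828 to 9596, 5795, 6485 and 5473, at all 4 days. Dmkn had means of 9924, 11848, 7184, 6679 and 4771, and only the fall at D20 was called. In *A. cahirinus*, Sbsn rose at D5 from 3661 to 6431 and fell to 2568 at D15, Dmkn rose from 5734 to 7176 and 8338 at D5 and D10, and Krtdap fell from 1455 to 1005 at D15 and 955 at D20. Calml3, a calmodulin-like protein of epithelia, rose at D5 and D10 in both species, from 887 to 2316 and 2100 and from 265 to 612 and 501.

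Grhl3 and Ovol1, transcription factors of terminal differentiation, rose at D5 in *A. cahirinus*, from 426 to 811 and from 521 to 759, and fell at D15 and D20, to 239 and 281 and to 267 and 333. In *M. musculus* neither was called before D20, when Grhl3 fell from 624 to 282 and Ovol1 from 431 to 334.

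Side by side, the mean change over the 4 days was higher in *M. musculus* for 21 of the 36 genes, or for 20 with means under 10 left out, which drops Flg2. It exceeded that of *A. cahirinus* by more than 1 for Flg, Rptn, Sprr1a, Sprr1b and Lor, and for Flg2, from whose component no direction is read. With the components under 95%, Flg was at 1.79 in *A. cahirinus* beside 3.83 in *M. musculus*, and for Flg2 the order turned, with -0.89 in *A. cahirinus* beside -1.42 in *M. musculus*. For Hrnr the same choice moved the *A. cahirinus* mean from 0.03 to -0.36, beside 0.78 in *M. musculus*, so that it too would differ by more than 1. Tgm3, by 1.86, and Krtdap, by 1.09, were lower in *M. musculus* by more than 1. The species were quantified against different references, and none of these differences was tested.

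**Figure D4:**
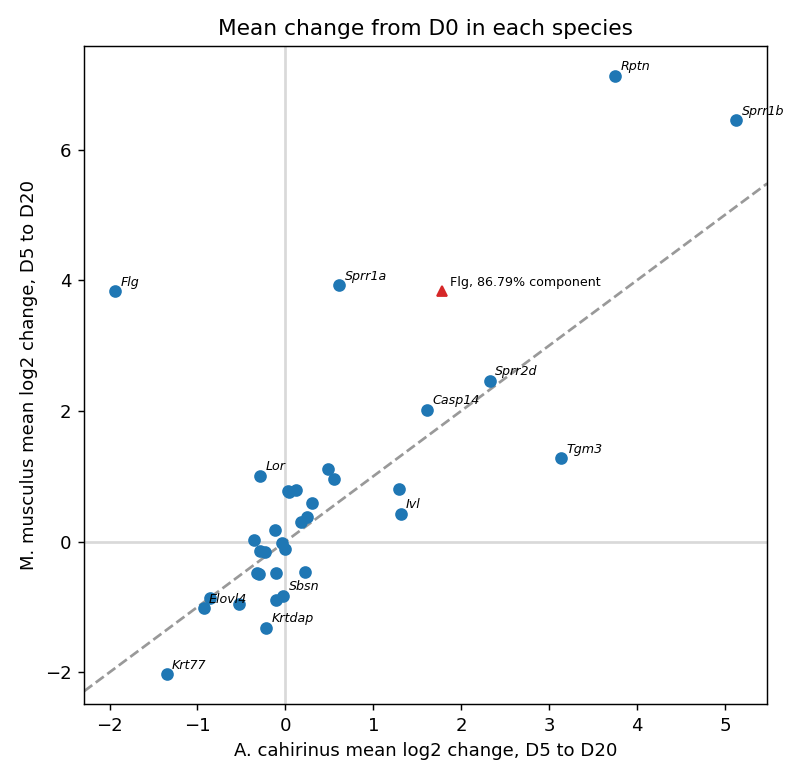
Mean log2 change from D0 over D5 to D20 in A. cahirinus (x axis) and M. musculus (y axis) for each counted gene but Flg2 (circles); the dashed line marks equal change and the triangle shows Flg with the component of 86.79% identity. Rptn, Sprr1a and Flg lie above the line and Tgm3 below it, while most genes lie close to it.

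Of the genes, 11 lie in the epidermal differentiation complex, between positions 92080271 and 93399442 of chromosome 3 (GRCm38). In *M. musculus* 10 of these 11 rose at D5 (background 16.5%) and 1, Flg2, fell (13.6%), with a median change of 1.65. On other chromosomes 14 of the 28 rose and 5 fell, with a median of 0.56. In *A. cahirinus* 6 of 10 rose (background 30.4%) and none fell (11.1%), with a median of 1.14. With the components under 95%, Flg also rose at D5 and Flg2 and Hrnr fell. On other chromosomes 15 of 26 rose and 3 fell, with a median of 0.42. At D20 in *M. musculus*, 2 of 11 fell in the complex and 18 of 28 outside it, against a background of 11.9%. Rises there were 5 of 11 and 3 of 28, against 12.3%. In *A. cahirinus* 1 of 10 fell in the complex and 15 of 26 outside it, against 14.7%, and 4 of 10 and 3 of 26 rose, against 12.7%. With the components under 95%, Flg2 also fell in *A. cahirinus* at D20 and Flg rose.

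Of 57 other barrier genes, 56 had a gene number and 41 a component, which for Lce1d is the one of Lce1b and is counted in both lists. In *M. musculus* 33 rose (background 16.5%) and 8 fell (13.6%) at D5, and 6 rose (12.3%) and 24 fell (11.9%) at D20. In *A. cahirinus* 24 rose (background 30.4%) and 7 fell (11.1%) at D5, and 3 rose (12.7%) and 19 fell (14.7%) at D20. The highest mean change belonged to Lce3e in *M. musculus*, from 0.134 to 123 normalized counts at D5, and to Klk14, a kallikrein, in *A. cahirinus*, from 0.658 to 17.6 at D10, the only day at which it was called. Both D0 means are under 1 normalized count, so these ratios are uncertain. Klk6, another kallikrein, named after its values were seen, rose at all 4 days in *A. cahirinus*, from 107 to 3626 at D5. In *M. musculus* Klk6 rose at D5, from 21.8 to 704, and at D10. The lowest belonged to Fa2h, a fatty acid hydroxylase, in *M. musculus*, from 1994 to 388 at D10, and to Cst6, a protease inhibitor of the epidermis, in *A. cahirinus*, from 3572 to 1483.

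Markers of other cells in the ear moved as well. For their counts, the background shares are those given above for each species and day. The wound-induced keratins Krt6a, Krt6b, Krt16 and Krt17 summed to 787 at D0 and 145318 at D5 in *M. musculus*, 4 of 4 higher, and to 43328 and 168899 in *A. cahirinus*, where the component of Krt6b is the one set apart for Krt1 that of Krt6a is the one of Krt78, and that of Krt17 is also the one of Krt15 and enters the basal sum too. Basal epidermis markers summed to 74366 at D0 and 124659 at D5 in *M. musculus*, but only 3 of 8 rose and 4 fell, with a median change of -0.14. Krt14 rose from 14788 to 70354, and Krt15, Col17a1, Trp63 and Dst fell. In *A. cahirinus* they summed to 29163 and 86739, with 5 of 7 higher and 1 lower, and the sum includes the mixed component of Krt5. Fibroblast markers summed to 32005 at D0 and 334912 at D20 in *M. musculus* and to 21667 and 130280 in *A. cahirinus*. Of the skeletal muscle markers, 4 of 4 fell at D20 in *M. musculus*, from a sum of 30683 to 3051. In *A. cahirinus* Ckm, Tnnt3 and Myh4 fell, Myh4 from 33249 to 3214, while Acta1 was at 19110 and 18782 and had risen at D5 to D15. Hair shaft and root sheath markers summed to 1200 at D0 and 33606 at D20 in *M. musculus*, 12 of 13 higher. In *A. cahirinus* they summed to 9250 and 8792. At D0 that sum is mostly the component given to Krt71, which is the one of Krt2 and Krt77 and went from 7840 to 3743. Only 2 of the 9 markers rose there at D20, Krt25 from 107 to 1868 and Tchh from 95.5 to 1526, and 1, Krt71, fell. Of the 4 sebaceous markers in *M. musculus*, 3 were lower at D5, 4 at D10, 4 at D15 and only 1 at D20. Their sum went from 2295 before injury to 994 by D15 and 1475 by D20. For *A. cahirinus*, 2 of the 4 were lower at D5 and 3 on each later day. Their sum there went from 13454 before injury to 5000 by D15 and 5283 by D20. Of the cartilage markers, Col2a1 rose from 177 to 1628 in *M. musculus* and from 635 to 2014 in *A. cahirinus* at D20, and Acan fell from 3677 to 2317 and from 4462 to 2139. The part of these shifts in the values above was not tested.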

How the data were processed

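RNA of ear tissue from 5 times in each of 2 species was sequenced by the authors, who mapped reads with RSEM and Bowtie, for *A. cahirinus* to a Trinity assembly and for *M. musculus* to mm10 genes, and compared each later day with D0 by EBSeq. The deposited tables give 2 ratios (fold changes of D0 over the later day) and a posterior probability, used as a score. For each alignment the authors' deposited BLASTN table holds an identity in percent, a length in bases (recorded as other) and a bit score. The ratios are the authors' own comparisons and were used because they are the only measured values in the tables. The means of both groups were solved from them, given that 0.01 and 1 constant per table, between 0.347 and 0.385, had been added, and the D0 means of a species matched between tables within 0.00388 on the log2 scale after scaling each to the D5 table. The sum of a group's means was 7330084 to 9409080 for *M. musculus* and between 14454829 and 18203633 for *A. cahirinus*. Depth per animal is unknown, so no interval is given.

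Features of *M. musculus* are numbered, not named. Gene names are therefore an inference: transcripts were laid, in the order of the deposited reference and matched to GENCODE M21 with minimap2 2.31, on the numbers, anchored on 1992 pairs in the study's supplementary list. With 1 in 10 of the pairs held out in turn, 1926 of 1992 were placed right, and 1835 of the 1855 with a cost margin of at least 3. Krt80 (margin 2.46) and Krt2 (2.96) lay below this margin, and Krt1 (3.3), the neighbouring number of Krt2, lay just above it. Of the 39 genes, 5 were in the list itself. For *A. cahirinus* the component with the top bit score under 99% identity was used, whatever its own best hit, and a component shared by genes counted for the one with the higher score. The members and lists were chosen with earlier results of these data known. Every member was described, and of the other barrier genes the counts and the highest and lowest mean change. Alternatives are given at the end. The recovery of means was tested on simulated data. Python 3.11.15, NumPy 2.4.6 and pandas 2.3.3 were used.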

Additional observations from a re-analysis of the deposited data

Results flagged for a closer look

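Flg was above D0 in all 4 later group means of *M. musculus* and below it in all 4 of *A. cahirinus*, with a difference in mean log2 change of 5.76 (*M. musculus* minus *A. cahirinus*). The difference was not tested. It rests on the *A. cahirinus* component of 98.79% identity, which was called at no day and which held contigs of Gstm1. The component of 86.79% rose at all 4 days, with a mean change of 1.79 beside 3.83 in *M. musculus*.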

How the results depend on the processing

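No paired analysis was possible because the tables hold no value per animal and the labels no replicate numbers, and for the same reason no animal could be left out. With no spread between replicates, a value was taken as moved past 1.5 times. A least log2 fold change of 1 lowered the counts most. In *A. cahirinus* it gave 9 rises and 1 fall at D5 and 7 rises and 1 fall at D10. At D15 and at D20 it gave 5 rises and 3 falls there, so rises outnumbered falls, unlike in the main counts. In *M. musculus* this limit gave 18 rises and 3 falls at D5, and 5 rises and 9 falls at D20. A least difference of 1 between species left 6 genes higher in *M. musculus*, of 21. Including near-identical contigs moved the *A. cahirinus* median at D5 to 0.22. Alternatives added after seeing the data were an identity limit of 95%, which gave 5 falls in *A. cahirinus* at D5 in place of 3, contigs rather than whole components set apart, which adds Krt1, and components whose contigs all match 1 gene, which gave 2 falls in *A. cahirinus* at D5. The other alternatives kept every count at or within 1.5 times and no median changed sign. Means under about 10 normalized counts, as for Flg2 in *A. cahirinus* and Sprr1b in *M. musculus* at D0, limit the ratios.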
